A study of Homo sapiens with 12 samples.

Results

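The 10 genes described here encode the core of the cellular oxygen sensor, and they were taken by name from the 57773 gene IDs of the deposited table. They are the alpha subunits of the hypoxia-inducible factor (HIF), namely HIF1A, EPAS1 (HIF-2 alpha) and HIF3A, the beta subunits ARNT and ARNT2, the prolyl hydroxylases EGLN1, EGLN2 and EGLN3, the asparaginyl hydroxylase HIF1AN, and VHL. The rule was a list of gene names, with no threshold on a measured value. All 10 passed the filter on low values as set here, a mean of at least 10 units in the libraries fitted. HIF3A in cells did not pass it with a mean of 50, with the background density described below taken off, or without hypoxia cells replicate 3.

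HIF is a dimer of an alpha and a beta subunit that binds DNA and switches on genes of low-oxygen life. In the presence of oxygen the EGLN enzymes hydroxylate prolines of the alpha subunit, VHL binds the hydroxylated protein as the recognition subunit of a ubiquitin ligase, and the protein is destroyed. HIF1AN hydroxylates an asparagine that contacts the p300 and CBP coactivators, and EGLN1 and EGLN3 are themselves known HIF targets, so the sensor rebuilds itself in hypoxia. Much of this control acts on protein, which was not measured here.

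RNA was sequenced from HEK293 cells, a human embryonic kidney line, and from the extracellular vesicles (EVs) they released. Cells of all 4 groups had 10% serum and were transfected for 48 h with vectors called 4EC1, which join eGFP and EIF4E to YTHDF1/GBP1 and CD9, so no group here lacks them. Normoxia cells and normoxia EVs were then compared with hypoxia cells and hypoxia EVs, taken after 24 h in a hypoxia chamber, with 3 libraries in each group. Per the labels' protocols, cellular RNA was extracted with TRIzol and EV RNA with a column kit, so compartment and extraction cannot be told apart. The labels give neither the oxygen level nor where the replicates came from, so p-values reflect the spread between these libraries alone, which may be technical.

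Cell libraries held 18059381 to 23400813 reads and EV libraries 3259453 to 7001767. Of these, the 10 genes together took 11734 to 13482 reads in a normoxia cell library, 13234 to 15002 under hypoxia, 1780 to 2341 in a normoxia EV library and 1300 to 2803 under hypoxia. Values are in the deposited units, reads divided by a single factor per library, and a read was worth 0.481 to 0.551 units in cells and 1.34 to 2.52 in EVs. Of 8 HEK293 markers 7 were matched, and their summed level was 4472 to 6023 units in cells and 7843 to 16164 in EVs, with none at 0 in all libraries of a group. A further measure moved with the groups: the density of reads on 354 olfactory receptor genes, a family mostly not transcribed in kidney cells. These genes were taken by name, and none was left out for being expressed. The measure is their pooled density. It was 0.382 to 0.858 units per kb of exon in cells, 1.47, 2.53 and 4.95 in normoxia EVs and 8.02 to 9.06 in hypoxia EVs, so normoxia EV replicate 3 stood apart from the other normoxia EV libraries. Summed blood markers (6 genes) went from 6.26 to 29.9 units in cells to 42.8 to 219 in EVs, and liver and plasma markers (5 genes) from 26.8 to 49.0 to 92.8 to 435, with none of either list at 0 throughout a group. In bulk RNA, fewer cells or vesicles with a transcript and less of it in each cannot be told apart.

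Promoter sequences are shown for the genes on which the hypoxia comparison in cells turns: EGLN1 and EGLN3, which rose, HIF1A, which fell, its antisense gene HIF1A-AS3, which rose, and EGLN2 as the remaining family member. Each window runs from 250 bases before to 50 bases after a RefSeq transcript start (GRCh38.p14), 5′ to 3′ on the gene's strand. The letters ACGTG and GCGTG, the core of the HIF response element, were searched on both strands and are in capitals, with the reverse strand reading CACGT or CACGC.

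EGLN1, chr1:231422238-231422537, minus strand: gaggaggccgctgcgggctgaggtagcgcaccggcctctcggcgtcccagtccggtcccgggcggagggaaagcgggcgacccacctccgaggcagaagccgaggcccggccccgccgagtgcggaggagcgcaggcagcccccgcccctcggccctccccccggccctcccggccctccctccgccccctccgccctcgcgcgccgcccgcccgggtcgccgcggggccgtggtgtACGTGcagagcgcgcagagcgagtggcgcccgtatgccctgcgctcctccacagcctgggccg
EGLN3, chr14:33951025-33951324, minus strand: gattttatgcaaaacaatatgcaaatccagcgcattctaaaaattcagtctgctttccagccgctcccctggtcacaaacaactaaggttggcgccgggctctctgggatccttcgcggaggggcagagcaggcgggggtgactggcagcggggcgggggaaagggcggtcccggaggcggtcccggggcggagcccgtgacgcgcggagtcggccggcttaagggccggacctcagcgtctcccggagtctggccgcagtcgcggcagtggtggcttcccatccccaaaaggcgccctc
EGLN2, chr19:40798941-40799240, plus strand: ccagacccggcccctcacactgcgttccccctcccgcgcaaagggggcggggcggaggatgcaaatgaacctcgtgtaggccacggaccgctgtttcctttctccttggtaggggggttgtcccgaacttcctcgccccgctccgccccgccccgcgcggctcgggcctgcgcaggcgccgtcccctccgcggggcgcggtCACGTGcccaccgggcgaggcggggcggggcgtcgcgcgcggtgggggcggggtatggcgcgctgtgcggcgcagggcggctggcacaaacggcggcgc
HIF1A, chr14:61695263-61695562, plus strand: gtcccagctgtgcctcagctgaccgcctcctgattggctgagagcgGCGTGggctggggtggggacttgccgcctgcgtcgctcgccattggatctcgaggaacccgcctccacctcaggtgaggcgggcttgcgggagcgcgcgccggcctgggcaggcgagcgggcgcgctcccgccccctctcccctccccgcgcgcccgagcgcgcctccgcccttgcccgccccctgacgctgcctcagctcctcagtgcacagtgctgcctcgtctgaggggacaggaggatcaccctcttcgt
HIF1A-AS3, chr14:61751048-61751347, minus strand: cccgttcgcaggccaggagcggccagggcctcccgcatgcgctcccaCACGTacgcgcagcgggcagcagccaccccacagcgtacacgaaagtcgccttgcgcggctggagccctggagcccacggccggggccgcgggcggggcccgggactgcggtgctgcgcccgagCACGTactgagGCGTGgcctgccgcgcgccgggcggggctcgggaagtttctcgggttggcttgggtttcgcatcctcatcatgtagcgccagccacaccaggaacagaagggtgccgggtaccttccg

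EGLN1 has ACGTG starting 13 bases before its RefSeq start, EGLN2 the palindrome CACGTG starting 49 bases before, and HIF1A GCGTG starting 204 bases before. EGLN3 has neither motif in its window, and HIF1A-AS3 has matches starting 203, 79 and 68 bases before. Windows were given for 8 of the 10 genes, and 5 of those 8 held a motif, EPAS1 and HIF3A being the others. Of 35116 RefSeq windows of this length, 21.41% hold ACGTG, 36.54% GCGTG and 48.45% either, so a match is common, and it is a description and not a site. A second RefSeq start of HIF1A and of EGLN2, and 2 further starts of HIF3A, had no match in their windows.

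In normoxia cells the sensor was led by HIF1A, EGLN1, VHL and ARNT. Per kb of exon (GENCODE 29 exon union), HIF1A had a density of 249.4 ± 18.1 units, EGLN1 191 ± 1.2, VHL 167 ± 14.03 and ARNT 151 ± 5.41 (SD, n = 3 each), and the libraries of neighbours in this order overlapped only for VHL and ARNT. HIF1AN (71.4 ± 2.33) and EPAS1 (68.9 ± 3.01) came next and overlapped. ARNT2 (30.8 ± 1.67), EGLN3 (25.7 ± 2.01) and EGLN2 (24.8 ± 4.37) were lower, with EGLN3 and EGLN2 overlapping, and HIF3A was lowest at 0.972 ± 0.514. In hypoxia cells EGLN1 led at 387 ± 37.5 and HIF1A followed at 181 ± 2.37, with no overlap between them.

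**Figure D1:**
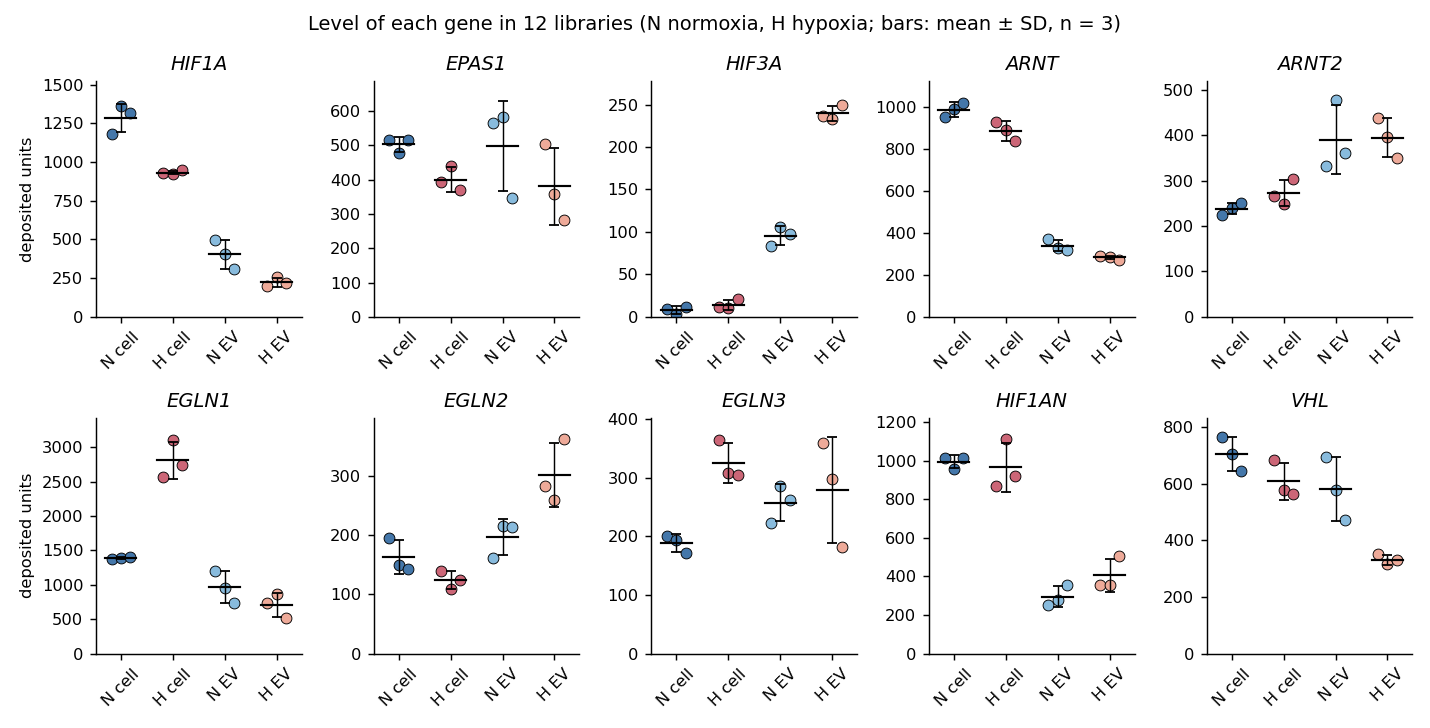
Level in deposited units (y axis, from 0) of each of the 10 genes in the 12 libraries, by group (N normoxia, H hypoxia). Points are libraries, and horizontal and vertical lines are the mean and SD of 3. EGLN1 is highest in hypoxia cells (2575 to 3108 units), HIF1A is highest in normoxia cells, and HIF3A is near 0 in cells and at 83.3 to 249.7 in EVs.

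Hypoxia was compared with normoxia in cells to see how the sensor's own transcripts answer low oxygen. EGLN1 and EGLN3 rose and HIF1A, EPAS1 and VHL fell, while HIF3A, ARNT, ARNT2, EGLN2 and HIF1AN did not pass the test. That is 2 genes higher and 3 lower of 10, where 8.01% of the 17260 genes tested were higher and 22.4% lower, 30.4% in all, so the share that fell is near the background. Fitted together with the EV libraries, which spread more, EGLN1 alone of the 10 passed. The median log2 fold change was -0.10 over the 10 genes and -0.07 over all genes tested. The test was limma-trend on log2(value + 1) with Benjamini-Hochberg adjustment over all genes, and fold changes below are on that scale, where low genes show less change than they had.

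EGLN1, the main oxygen-dependent brake on HIF alpha, was at 1383, 1389 and 1400.2 units in normoxia cells and at 2575, 3108 and 2746 in hypoxia cells. Every hypoxia library was far above every normoxia library, and the means differed 2.02-fold. Its log2 fold change was 1.01 ± 0.06 (SE; limma adjusted p = 1.86e-21).

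EGLN3, a relative known to be induced by low oxygen in many cell types, was at 200.3, 195 and 172 units in normoxia cells and at 365, 308 and 304 in hypoxia cells. The groups did not overlap and the means differed 1.72-fold, and per kb EGLN3 overlapped EGLN2 in normoxia but not in hypoxia. Its limma adjusted p was 2.23e-07.

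EGLN2, the third prolyl hydroxylase, was at 196, 149.9 and 143 units in normoxia cells and at 140.1, 109 and 124 in hypoxia cells. The groups did not overlap, but the normoxia libraries spread widely, and the log2 fold change of -0.38 ± 0.15 (SE) missed the threshold (limma adjusted p = 0.0539). It passed in 5 of 17 alternatives. These were leaving out genes with a mean under 50 (limma adjusted p = 0.0441), a replicate block (0.0483), olfactory receptor density taken off (0.0436), and leaving out normoxia cells replicate 3 (0.0389) or hypoxia cells replicate 1 (0.0313). Among the others, it did not pass with edgeR (adjusted p = 0.144), DESeq2 (0.194), equal totals (0.251) or no filter (0.111). Nor did it pass without normoxia cells replicate 1 (-0.24, 0.340) or hypoxia cells replicate 2 (-0.29, 0.210).

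The makeup of the EGLN family by density shifted accordingly. EGLN1 took 79.2% ± 2.05 of the family's density in normoxia cells and 85.9% ± 2.35 in hypoxia cells, EGLN2 10.2% ± 1.58 and 4.24% ± 0.799, and EGLN3 10.6% ± 0.669 and 9.90% ± 1.57 (SD, n = 3 each). EGLN1 and EGLN2 shares did not overlap between the groups and EGLN3 shares did. The density ratio of EGLN3 to EGLN1 was 0.134 in normoxia cells and 0.114 in hypoxia cells, a log2 difference of -0.23 (p = 0.3 by an exact permutation test, two-sided, adjusted p = 0.327 over 12 ratio tests).

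HIF1A, the alpha subunit found in nearly all tissues, was at 1180.1, 1359.6 and 1315 units in normoxia cells and at 926, 924 and 946 in hypoxia cells. The 3 hypoxia libraries lay close together and all below normoxia, a mean ratio of 0.725. Its limma adjusted p was 2.69e-07.

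EPAS1, the alpha subunit best known from vessels and kidney interstitium, was at 516, 478 and 515 units in normoxia cells and at 392, 441 and 369 in hypoxia cells, again without overlap. The log2 fold change was -0.33 ± 0.09 (SE; limma adjusted p = 0.00377), and it was -0.21 with an adjusted p of 0.0901 when all libraries were scaled to equal totals. HIF1A remained the larger part of the alpha family, at 78.1% ± 1.96 and 76.2% ± 1.63 of the density.

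HIF3A, whose splice forms can oppose the other alpha subunits, was at 9.56, 3.31 and 11.5 units in normoxia cells and at 11.4, 10.8 and 21.0 in hypoxia cells. These values rest on 6 to 40 reads, the groups overlapped, and the limma adjusted p was 0.263.

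The beta subunits, which are known as stable in low oxygen, did not pass the test in cells. ARNT was at 948, 989.8 and 1018 units in normoxia cells and at 929, 888 and 837 in hypoxia cells. The ARNT groups did not overlap, and the log2 fold change was -0.16 (limma adjusted p = 0.0961). ARNT2, its relative known mainly from neurons, was at 225, 240.3 and 251 and at 266, 248.7 and 305, with overlap (adjusted p = 0.228), and rose by 0.31 (adjusted p = 0.0368) with equal totals. The density ratio of HIF1A to ARNT was 1.65 in normoxia cells and 1.33 in hypoxia cells without overlap, and its exact two-sided permutation p of 0.1 (adjusted p = 0.24) is the smallest that 3 against 3 libraries can give.

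VHL was at 763, 704 and 645 units in normoxia cells and at 685, 577 and 565 in hypoxia cells, with overlap. The log2 fold change of -0.21 ± 0.08 (SE) just passed (limma adjusted p = 0.0482), and did not pass with edgeR (0.279), with DESeq2 (0.368), with equal totals (0.506), with no filter (0.145) or without normoxia cells replicate 1 (0.249) or 2 (0.111) or hypoxia cells replicate 2 (0.173) or 3 (0.212). HIF1AN was at 1014, 958 and 1016 units in normoxia cells and at 869, 1110.1 and 919 in hypoxia cells. Its groups overlapped, and the log2 fold change of -0.05 (adjusted p = 0.669) turned to 0.07 with equal totals.

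The density ratio of EGLN1 to HIF1A joins the largest opposite changes: it was 0.769 in normoxia cells and 2.13 in hypoxia cells. The log2 difference was 1.47, with no overlap and the smallest exact p that this design allows (0.1, adjusted p = 0.24). Scaling cancels in such a ratio. In EVs it was 1.695 in normoxia and 2.193 in hypoxia with overlap, a log2 difference of 0.37 (exact permutation p = 0.2, adjusted p = 0.3). Over both conditions it was 1.93 in EVs and 1.28 in cells, with overlap (exact permutation p = 0.145, adjusted p = 0.249). That comparison pools conditions that lay apart in cells. In normoxia every EV library (log2 0.75 to 0.78) was above every cell library (-0.46 to -0.27). In hypoxia EVs (0.76 to 1.39) and cells (0.98 to 1.25) overlapped. The compartments were not tested within a condition.

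**Figure D2:**
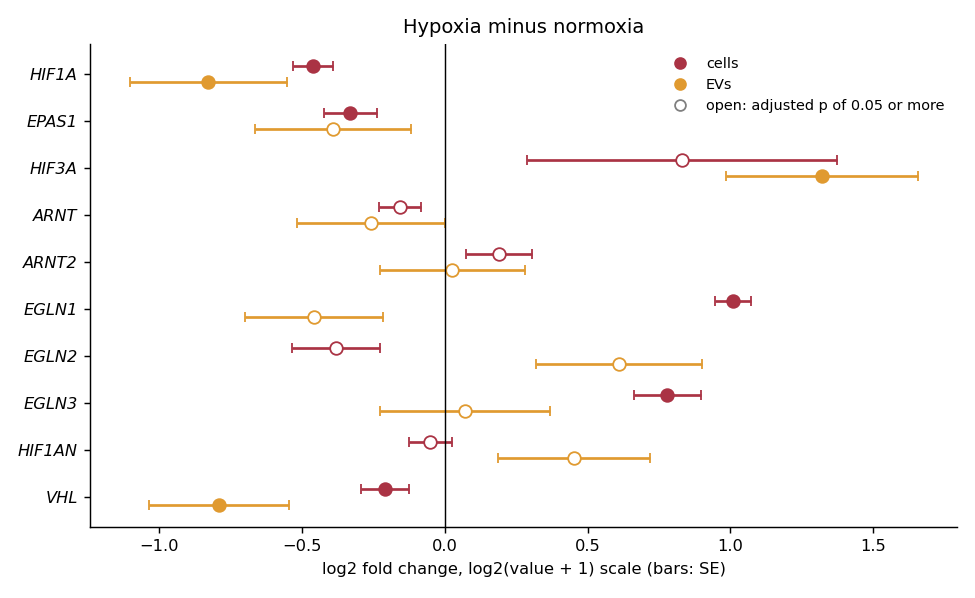
Log2 fold change, hypoxia minus normoxia, on the log2(value + 1) scale (x axis) of the 10 genes (y axis) in cells and in EVs. Points are estimates and bars the SE, and open points had a limma adjusted p of 0.05 or more. EGLN1 stands at 1.01 in cells and at -0.46 in EVs.

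An antisense gene moved the opposite way to HIF1A. The gene named HIF1A-AS2 in GENCODE 29 and HIF1A-AS3 in the gene-name table used here (ENSG00000258667, chr14:61715558-61751097, minus strand) runs opposite the downstream part of HIF1A (chr14:61695513-61748259, plus strand) but shares 0 exon bases with it. It was at 10.1, 6.06 and 3.85 units in normoxia cells and at 41.1, 39.6 and 42.0 in hypoxia cells, 6.14-fold apart without overlap, with a log2 fold change of 2.53 ± 0.43 (SE; limma adjusted p = 2.61e-06). In EVs it had 1, 0 and 2 reads in normoxia and 10, 6 and 6 in hypoxia, and its mean was too low to be tested there. The counting's use of strand is unknown, so reads from HIF1A introns on that stretch cannot be told apart from it.

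Other genes overlap members in the annotation. The readthrough gene RAB4B-EGLN2, which shares 2012 exon bases with EGLN2, was listed at 0 in all 12 libraries. NDUFB8 shares 325 exon bases with HIF1AN on the opposite strand and was at 31.5 to 58.9 units in cells. AC016705.1, antisense to ARNT2 with 0 shared exon bases, was at 8.11 to 26.5 units in cells and at 414 to 940.4 in EVs.

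The partners of the sensor in cells are given next, by lists whose counts stand beside 8.01% higher and 22.4% lower over all genes tested. The lists were chosen with earlier results of these data known, so their counts are a description. Of 29 tested core HIF targets 27 rose, PLOD2 by 1.77 and BNIP3 by 1.67 on the log2 scale, with 28 by edgeR and by DESeq2. Of 11 genes of the VHL ubiquitin ligase and of neddylation 4 fell, among them the ligase scaffold CUL2 (-0.47) and the ubiquitin-conjugating UBE2D3 (-0.34), and none rose (0 also at an unadjusted p under 0.05, by edgeR and by DESeq2). Of 13 coactivators and partners 3 rose and 1 fell. CITED2, which competes with HIF alpha for p300 and CBP, rose by 1.67 and PKM by 0.38, and RUVBL2 fell by 0.52. The list medians were 1.11, -0.20 and -0.11, beside -0.07 over all genes.

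Of 29 regulators of HIF alpha stability 2 rose, a share near that of all genes, and 11 fell (7 with equal totals), with a median of -0.15. WSB1, a ubiquitin ligase subunit that acts on VHL, rose by 0.61 and the LIM protein WTIP by 0.84, while the chaperones HSP90AB1 and HSPA4 fell by 0.72 and 0.46. Of 18 enzymes of succinate, fumarate and 2-oxoglutarate, the product, inhibitor and cosubstrate of the hydroxylases, 2 rose and 12 fell, with a median of -0.41. IDH2 rose by 0.54 and D2HGDH by 0.50, and the succinate enzymes SDHB and SUCLG1 fell by 0.49 and 0.50. Among 10 relatives of the hydroxylases 2 fell, RIOX2 by 0.59 and OGFOD1 by 0.48, a share near that of all genes, and none rose by limma, edgeR or DESeq2 or at an unadjusted p under 0.05. Of 10 other bHLH-PAS genes, the protein family of HIF, AHRR rose by 0.64 and the clock gene BMAL1 by 0.42. All these values passed limma at an adjusted p under 0.05.

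In EVs the hypoxia comparison asks whether vesicle RNA carries the same change, and here it gave HIF1A and VHL lower and HIF3A higher, with 7 of 10 genes not past the test. Of 27904 genes tested, 5.68% were higher and 6.62% lower, 12.3% in all. The median log2 fold change was 0.60 over all genes and -0.12 over the 10. Over the 15260 genes with a mean of at least 50, which include the 10, the median was -0.15. Scaling the libraries to equal totals moved the all-gene median to 1.21 and the share of called genes that were higher from 46.2% to 95.9%. Directions in EVs are therefore given with that setting where it turns them.

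EGLN1 was at 1204, 960.3 and 741 units in normoxia EVs and at 733, 860.2 and 525 in hypoxia EVs. The groups overlapped and the means went down, opposite to cells, with a log2 fold change of -0.46 ± 0.24 (SE; limma adjusted p = 0.174) that turned to 0.11 with equal totals and was -0.64 (adjusted p = 0.0392) without normoxia EVs replicate 3. The difference of the hypoxia responses, EVs minus cells, was tested as an interaction over all 12 libraries and was -1.47 ± 0.26 (SE; limma adjusted p = 0.0108). It held its sign in all 22 alternatives (-1.65 to -1.02) and passed in 21, edgeR and DESeq2 among them, the exception being without hypoxia cells replicate 2 (-1.39, adjusted p = 0.0549).

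EGLN1 was the single gene of the 10 to pass the interaction test, where 0.443% of 24171 genes were higher and 1.87% lower, 2.31% in all. None of the 10 was higher by limma or edgeR, and 1 was by DESeq2 and 1 at an unadjusted p under 0.05, EGLN2 in both cases. Of 30 core HIF targets 17 had a lower response in EVs than in cells by the same test. In EVs alone 0 of the 30 passed by limma, edgeR or DESeq2, 2 were higher at an unadjusted p under 0.05, and 8 were higher by limma with equal totals.

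EGLN3 was at 224, 286 and 262 units in normoxia EVs and at 359, 298 and 182 in hypoxia EVs, so the hypoxia libraries lay on both sides of normoxia. Its log2 fold change was 0.07 in EVs (limma adjusted p = 0.870) and its interaction -0.71 ± 0.32 (SE; adjusted p = 0.210).

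EGLN2 was at 162, 216 and 213 units in normoxia EVs and at 283, 259 and 363 in hypoxia EVs, without overlap and 1.53-fold higher. The limma adjusted p was 0.137 in EVs and 0.0940 for the interaction of 0.99 ± 0.32 (SE). With equal totals both passed (1.18, adjusted p = 0.0195, and 1.43, adjusted p = 0.0366), as did the interaction with DESeq2 (1.01, adjusted p = 0.0227) and without normoxia EVs replicate 3 (1.05, adjusted p = 0.0244). EGLN2 density was 12.1 ± 5.15 times that on olfactory receptor genes in normoxia EVs and 5.38 ± 0.632 times under hypoxia (SD, 3 libraries each).

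HIF1A was at 495, 405 and 311 units in normoxia EVs and at 198, 256 and 219 in hypoxia EVs, without overlap, at a mean ratio of 0.556. The call was at the threshold (limma adjusted p = 0.0497). With equal totals the log2 fold change went from -0.83 to -0.26 (adjusted p = 0.402), and leaving out any library except normoxia EVs replicate 3 gave adjusted p from 0.122 to 0.173. Without that library the limma adjusted p was 0.0103. It also missed the threshold with a pseudocount of 0.5 (0.0569) and with no filter on low values (0.0880).

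VHL was at 695, 578 and 471 units in normoxia EVs and at 350.0, 315 and 330.4 in hypoxia EVs, without overlap, at a mean ratio of 0.571. Its log2 fold change of -0.79 ± 0.24 (SE; limma adjusted p = 0.0404) went to -0.22 with equal totals (adjusted p = 0.394). Leaving out any library except normoxia EVs replicate 3 ended the call (adjusted p 0.111 to 0.147), as did using no filter (0.0701), and without that one it was -0.93 (0.00688). The VHL interaction of -0.58 (adjusted p = 0.174) was then -0.72 (adjusted p = 0.0161).

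HIF3A was at 83.3, 106 and 97.7 units in normoxia EVs and at 236, 233 and 249.7 in hypoxia EVs, on 35 to 177 reads a library. The groups lay far apart, 2.50-fold, with a log2 fold change of 1.32 ± 0.34 (SE; limma adjusted p = 0.0224). Olfactory receptor density rose 2.85-fold over the same groups. With that density taken off every gene the change was 1.26 and no longer passed (adjusted p = 0.0542), nor did it pass without normoxia EVs replicate 2 (0.105) or hypoxia EVs replicate 1 (0.0827), 2 (0.0947) or 3 (0.106).

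**Figure D3:**
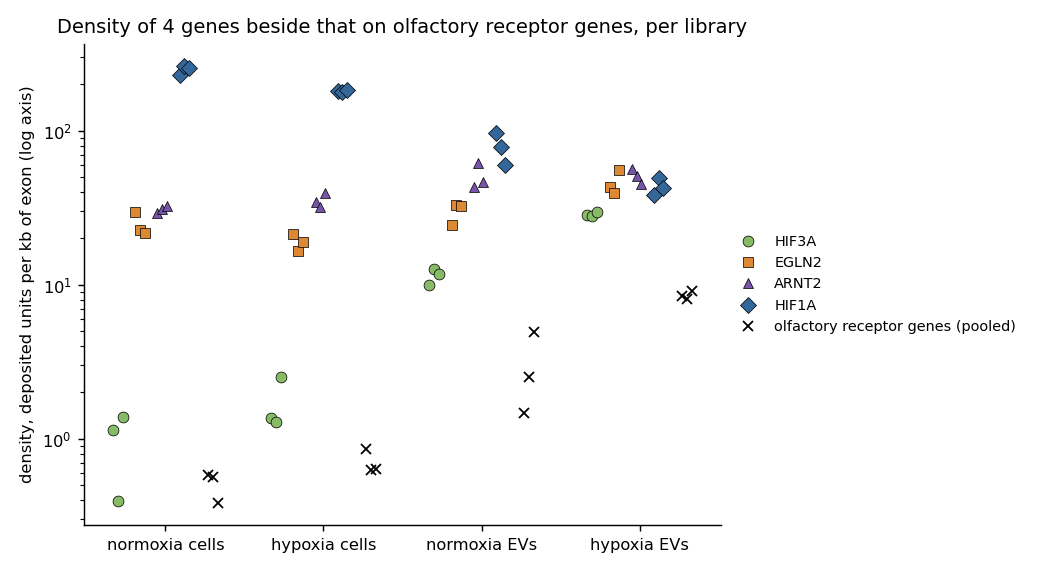
Density in deposited units per kb of exon (log y axis) of HIF3A, EGLN2, ARNT2 and HIF1A and of olfactory receptor genes pooled, in each library (points) of the 4 groups. HIF3A stays at 2.09 to 4.72 times the olfactory receptor density on average in all 4 groups, while HIF1A goes from 511 times in normoxia cells to 5.15 times in hypoxia EVs.

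HIF3A density was 2.09 ± 1.46 times that on olfactory receptor genes in normoxia cells and 2.54 ± 1.26 in hypoxia cells, against 4.72 ± 2.22 in normoxia EVs and 3.38 ± 0.0888 under hypoxia (SD, 3 libraries each). These multiples overlapped between all groups, whereas the HIF3A levels themselves overlapped only between normoxia cells and hypoxia cells. In hypoxia EVs HIF1A was at 5.15 ± 0.899 times that density, ARNT at 5.12 ± 0.451 and HIF1AN at 3.40 ± 0.519, against 511 ± 141, 310.0 ± 86.2 and 146 ± 38.6 in normoxia cells.

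HIF1AN was at 252, 276 and 356 units in normoxia EVs and at 354, 356 and 504 in hypoxia EVs, with a small overlap and a log2 fold change of 0.45 (limma adjusted p = 0.216) that was 1.02 with equal totals (adjusted p = 0.0245). EPAS1 was at 566, 584 and 348 and at 504, 358 and 282 (-0.39, adjusted p = 0.296), ARNT at 369, 328 and 319 and at 289, 286 and 272 (-0.26, adjusted p = 0.467), and ARNT2 at 333, 477 and 362 and at 438, 396 and 351 (0.03, adjusted p = 0.944). Of these only the ARNT groups did not overlap, and with equal totals EPAS1 turned to 0.18 and ARNT to 0.31.

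In 5 of the partner lists some genes fell in EVs, where 6.62% of all genes did. Of 29 stability regulators 10 fell, led by STUB1 (-1.16) and HSPA4 (-1.14), and 2 rose, the hydroxylase P4HTM (1.35) and WTIP (1.03). Of 13 coactivators 3 fell, among them EP300 (-0.91) and CREBBP (-0.93), the proteins that HIF1AN keeps off HIF alpha. Of 11 VHL ligase and neddylation genes 2 fell, UBE2M (-0.94) and ELOB (-0.75), of 18 metabolite enzymes 2 fell, SDHA (-0.75) and GLUD1, and of 10 hydroxylase relatives JMJD6 fell (-0.73) and P4HTM rose. All these passed limma at an adjusted p under 0.05. The medians of these 5 lists ran from -0.62 to -0.25, beside 0.60 over all genes. Over the 15260 genes with a mean of at least 50 the median was -0.15, and 2378 of them were lower. With equal totals the numbers that fell went from 10 to 3 for the stability regulators, from 3 to 1 for the coactivators, and to 0 for the ligase, metabolite and hydroxylase lists. Of 11 other bHLH-PAS genes 0 passed by limma (1 higher and 1 lower at an unadjusted p under 0.05, 1 lower by edgeR and by DESeq2).

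Comparing EVs with cells under each condition shows which sensor transcripts the vesicles hold in other amounts than the cells. In normoxia 2 of the 10 genes were higher in EVs and 4 lower, where 29% of 24171 genes were higher and 27.2% lower, 56.3% in all. In hypoxia 3 were higher and 5 lower, where 40.6% and 29.1% were, 69.7% in all, so these counts are not far from the background. The median over all genes was 0.21 in normoxia and 0.43 in hypoxia, and over the 10 genes -0.17 and -0.57. Over the 13674 genes with a mean of at least 50, which include the 10, it was -0.34 and -0.50. Of those genes 3383 were higher and 5999 lower in normoxia, and 3085 higher and 6679 lower in hypoxia.

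HIF1A, ARNT and HIF1AN were lower in EVs under both conditions, with no overlap of libraries. HIF1A differed by -1.69 ± 0.17 in normoxia and by -2.06 ± 0.17 in hypoxia, ARNT by -1.54 ± 0.15 and -1.64 ± 0.15, and HIF1AN by -1.77 ± 0.18 and -1.27 ± 0.18 (log2, SE). These passed in all 23 alternatives of each contrast, edgeR and DESeq2 among them.

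EGLN1 differed by -0.55 in normoxia (limma adjusted p = 0.0160) and by -2.02 in hypoxia (adjusted p = 1.99e-08), where cells held 3.98-fold more. The normoxia difference was -0.37 without normoxia EVs replicate 3 (adjusted p = 0.0682). EGLN3 did not pass under either condition (0.44 and -0.27), nor did EPAS1 (-0.05 and -0.11), though with TMM factors both were lower in hypoxia EVs (EGLN3 -0.75, adjusted p = 0.00924, and EPAS1 -0.59, adjusted p = 0.0273).

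HIF3A was higher in EVs by 3.54 ± 0.46 in normoxia and 4.03 ± 0.46 in hypoxia (log2, SE), 11.8-fold and 16.7-fold between the means, and passed in all 23 alternatives of each contrast, edgeR and DESeq2 among them. Olfactory receptor density was 5.87-fold and 12.1-fold higher in EVs over the same groups. In cells HIF3A itself lay at 0.703 to 3.97 times that density, so its fold between EVs and cells rests on cell values near it. The 23 alternatives rest on the same low cell values, so passing in all of them is not separate evidence. HIF3A averaged 8.14 units in normoxia cells, and the filters of these fits averaged in the EV libraries. In normoxia cells replicate 2 its density (0.395 units per kb) was below that of olfactory receptor genes (0.562). Taking that density off left no HIF3A signal there, and the normoxia difference became 4.23.

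EGLN2 was 2.43-fold higher in hypoxia EVs than in hypoxia cells (log2 difference 1.26, limma adjusted p = 7.34e-05), and it passed in all 23 alternatives (0.78 to 1.53). In normoxia it did not pass (0.27, adjusted p = 0.308). ARNT2 was higher in EVs by 0.69 in normoxia (adjusted p = 0.00368) and 0.53 in hypoxia (adjusted p = 0.0161), but with TMM factors by 0.39 (adjusted p = 0.0942) and 0.04 (adjusted p = 0.849). The hypoxia call of ARNT2 was also lost with edgeR (0.33, adjusted p = 0.117), with the olfactory receptor density taken off (0.29, 0.195), and without hypoxia cells replicate 2 (0.47, 0.0703) or hypoxia EVs replicate 1 (0.45, 0.0611).

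VHL differed by -0.87 in hypoxia, 1.84-fold lower in EVs, and passed in all 23 alternatives (limma adjusted p = 0.000165), and did not pass in normoxia (-0.29, adjusted p = 0.147). It passed there with equal totals (-0.47, adjusted p = 0.00829), with TMM factors (-0.59, 0.00634), with edgeR (-0.41, 0.0337) and without normoxia EVs replicate 1 (-0.43, 0.0258).

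**Figure D4:**
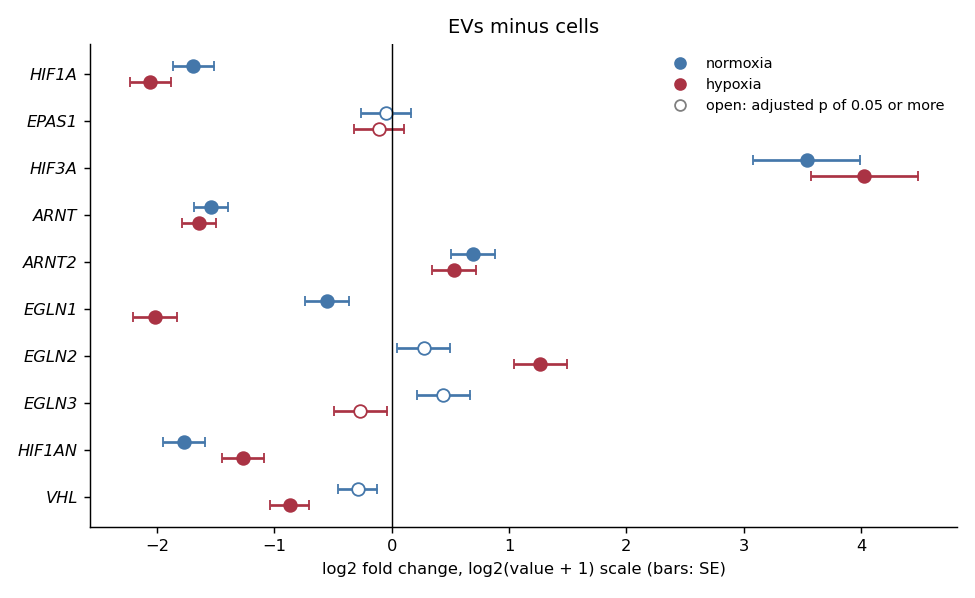
Log2 difference, EVs minus cells, on the log2(value + 1) scale (x axis) of the 10 genes (y axis) in normoxia and in hypoxia. Points are estimates and bars the SE, and open points had a limma adjusted p of 0.05 or more. HIF1A, ARNT and HIF1AN lie between -2.06 and -1.27 under both conditions, EGLN1 moves from -0.55 to -2.02, and HIF3A lies at 3.54 and 4.03.

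Family makeup, in which library scaling cancels, differed between compartments. HIF1A took 49.6% ± 3.29 of alpha density in normoxia EVs and 35.3% ± 6.08 in hypoxia EVs, below the 74.4% to 80.0% of every cell library. The density ratio of EPAS1 to HIF1A was 0.289 in cells and 1.01 in EVs, a log2 difference of 1.80 with no overlap (p = 0.00217 by the exact permutation of 6 against 6 libraries, adjusted p = 0.0130). The ratio of EGLN3 to EGLN1 was 0.124 and 0.320, a log2 difference of 1.37 without overlap and with the same p. The ratio of HIF1A to ARNT was 1.48 and 1.22 and overlapped (exact permutation p = 0.121, adjusted p = 0.242). These values pool both conditions. In hypoxia every EV library (log2 -0.20 to 0.18) was below every cell library (0.34 to 0.52), while in normoxia the compartments overlapped.

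ARNT took 83.1% ± 0.263 of the beta density in normoxia cells and 79.4% ± 2.44 in hypoxia cells, against 51.0% ± 5.94 in normoxia EVs and 46.0% ± 2.06 under hypoxia (SD, 3 libraries each). EGLN1 took 66.6% ± 7.71 of EGLN density in normoxia EVs and 53.2% ± 6.16 in hypoxia EVs, EGLN2 15.4% ± 4.00 and 26.2% ± 8.87, and EGLN3 17.9% ± 3.72 and 20.7% ± 4.55. By density the order in hypoxia EVs was EGLN1 (97.2 ± 23.3), VHL (78.8 ± 4.15), then EPAS1 (52.2 ± 15.4), ARNT2 (51.0 ± 5.66), EGLN2 (45.9 ± 8.30), HIF1A (43.5 ± 5.70), ARNT (43.3 ± 1.34), EGLN3 (38.0 ± 12.3), HIF1AN (29.02 ± 6.18) and HIF3A (28.6 ± 1.05). All neighbours in that order overlapped except VHL and EPAS1.

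**Figure D5:**
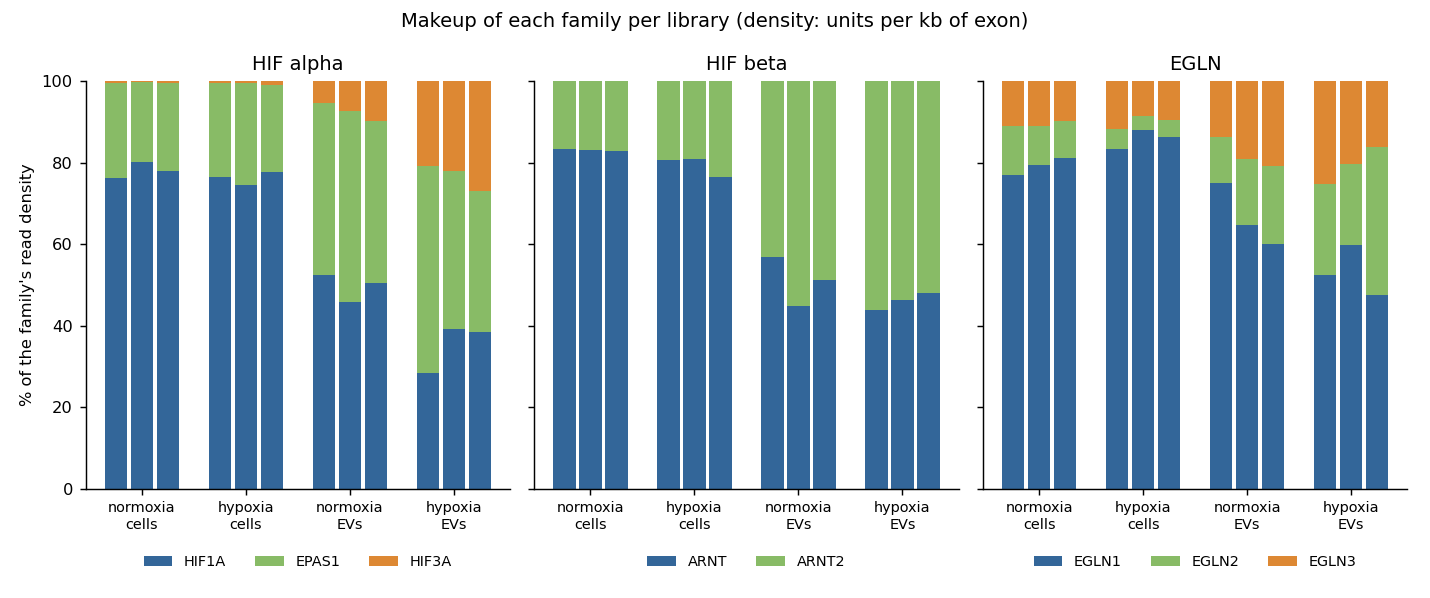
Share of each family's density (y axis, %, per kb of exon) taken by each gene of the HIF alpha, HIF beta and EGLN families, with 1 bar per library in each of the 4 groups. HIF1A takes 74.4% to 80.0% of the alpha density in cells and 28.3% to 52.3% in EVs.

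Genes with the pattern most like 3 of the members were found by Pearson's r of log2(value + 1) over the 12 libraries among the 10250 protein-coding genes whose mean reached 100. All points share libraries, depth and the cell-EV difference, so r is a description. For HIF1A they were GSPT1 (0.998), TOMM70 (0.998) and EIF4G2 (0.997), for EGLN1 ALDOA (0.981), GBE1 (0.973) and ALAS1 (0.966), and for EGLN3 CCDC74B (0.884), BSN (0.882) and PFKFB4 (0.876).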

How the data were processed

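Total RNA libraries of 4 groups, with 3 each, were made with a stranded SMARTer kit, per the labels' protocols. Tools listed in the submitters' processing notes are DESeq2 1.30.1 and Bowtie 0.12.2, with build hg38, while the counter, annotation and strand setting are unstated. The table deposited by the authors holds a signal for each gene, namely whole reads divided by 1 factor per library, with 100% of values whole within 0.01 read once multiplied back, so reads were recovered.

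The test was limma 3.58.1 (trend) in R 4.3.3 on log2(value + 1), for genes whose mean over the fitted libraries reached 10, with Benjamini-Hochberg adjustment at 0.05. Each hypoxia comparison used its own 6 libraries, and EVs against cells and the interaction used all 12. Because the deposited signal is not raw counts, edgeR 4.0.16 and DESeq2 1.42.0 on recovered reads served as alternatives, beside other pseudocounts, filters and scalings, a replicate block, removal of olfactory receptor density and leaving out each library. Densities are per kb of GENCODE 29 exon union, matched for 52338 of 57773 IDs. The authors' annotation may differ. Density ratios were compared by exact permutation tests (SciPy 1.17.1). The scripts were tested on simulated data.

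All 10 genes are named throughout. From each partner list, up to 2 genes higher and 2 lower with the smallest p are named per hypoxia comparison. Some of the genes overlapping a member are also named, as are the 3 genes correlating best with HIF1A, EGLN1 and EGLN3. Members and lists were chosen with earlier results of these data known. Counting error alone allows up to 3 reads where 0 are found. No protein sequences, and no promoter windows of VHL or ARNT2, were used here.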

Additional observations from a re-analysis of the deposited data

Results flagged for a closer look

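EGLN1 responded differently to hypoxia in cells and in EVs. The interaction was -1.47 on the log2 scale (limma adjusted p = 0.0108), with all 3 hypoxia cell libraries above normoxia and EV libraries that overlapped.

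EGLN2 moved in opposite directions without overlap of libraries, to 0.763-fold in hypoxia cells and to 1.53-fold in hypoxia EVs. The test of that difference missed the threshold (limma interaction 0.99, adjusted p = 0.0940). Neither response passed on its own (limma adjusted p = 0.0539 in cells and 0.137 in EVs). The EGLN2 log2 fold change in EVs was 0.61, beside a median of 0.60 for all genes tested there. That median was -0.15 once genes averaging under 50 units were left out. Olfactory receptor density rose 2.85-fold over the same EV groups, and its part in the EGLN2 change was not tested beyond taking it off, which left an EV change of 0.46 (adjusted p = 0.323).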

How the results depend on the processing

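The number of the 10 genes called depended on scaling and on single EV libraries. In cells, 2 were higher (3 with equal totals, 1 when all 12 libraries were fitted) and 3 lower (1 with equal totals, 0 with all 12, 2 with edgeR, DESeq2 or no filter, 4 with a filter mean of 50 or olfactory receptor density removed), and leaving out each library gave 2 and from 2 to 4. In EVs, 1 was higher (3 with equal totals, 0 with olfactory receptor density removed, 2 with all 12 fitted, 0 to 1 without each library) and 2 lower (1 with a pseudocount of 0.5, 0 with no filter, 0 with equal totals, 0 to 3 without each library). For EVs against cells, 2 were higher in normoxia (1 with TMM, 2 to 3 without each library) and 4 lower (5 with TMM, edgeR or equal totals, 3 to 5 without each library). In hypoxia 3 were higher (2 with TMM, edgeR or olfactory receptor density removed, 2 to 3 without each library) and 5 lower (7 with TMM, 5 without each library). For the interaction, 0 were higher (1 with equal totals, 1 with DESeq2, 0 to 2 without each library) and 1 lower (0 to 2). The highest counts lower in EVs and in both directions of the interaction came without normoxia EVs replicate 3.

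The changes of sign were in values that had not passed the test. In cells HIF1AN (-0.05) was 0.0744 with equal totals, 0.0381 with edgeR, 0.0423 with DESeq2 and -0.16 to 0.0212 without each library. In EVs, equal totals gave 0.18 for EPAS1, 0.31 for ARNT and 0.11 for EGLN1. ARNT2 in EVs (0.03) was -0.16 with TMM, -0.0382 with edgeR, -0.0901 with DESeq2, -0.15 with olfactory receptor density removed and -0.0793 to 0.18 without each library, and EGLN3 (0.07) was -0.12 with TMM, -0.22 with that density removed and -0.14 to 0.35. For EVs minus cells, EPAS1 in normoxia was 0.0035 with DESeq2 and -0.18 to 0.19, EGLN2 in normoxia -0.0266 with TMM, EPAS1 in hypoxia 0.16 with equal totals and -0.33 to 0.0876, and EGLN3 in hypoxia -0.48 to 0.0134. With equal totals the interaction was 0.0732 for HIF1A, 0.38 for EPAS1, 0.34 for ARNT and 0.28 for ARNT2, and for EPAS1 -0.30 to 0.14 without each library. The causes were not tested. Of 1543 single-gene values under alternatives, 33 changed sign, 136 lost the call and 22 gained it, and all 120 density ratios kept direction and side. For ratios of hypoxia to normoxia libraries the side was fixed, since so few libraries cannot give an exact p under 0.05.

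Over all genes, the share of called genes that were higher went from 26.3% in cells to 53.1% with equal totals, 42.1% with edgeR, 43.4% with DESeq2 and 70.2% with all 12 fitted. In EVs it went from 46.2% to 25.5% with TMM, 95.9% with equal totals, 29.3% with edgeR, 34.2% with DESeq2 and 13.2% with olfactory receptor density removed. For the interaction it went from 19.1% to 76.0% with equal totals. With a replicate block, 2 members were higher and 4 lower in cells, EGLN2 being added (adjusted p = 0.0483), and the other counts stayed at 1 and 2 in EVs, 2 and 4, and 3 and 5 for EVs against cells, and 0 and 1 for the interaction. The numbers did not pair the samples: r of same-numbered libraries ran from -0.117 to 0.0614, and 2 of 12 correlated best with their own number. Over all genes the block moved the EV calls from 1586 higher and 1846 lower to 2776 and 2633, and the interaction from 107 and 452 to 48 and 278. HIF3A rests on 6 to 40 reads a library in cells and 35 to 177 in EVs.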
